A study of Rattus norvegicus with 9 samples.

Results

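Pleiotrophin, midkine and the cell surface proteins that bind them were followed on arrays of embryonic rat ventral spinal cord. The 8 genes were Ptn and Mdk, which code for the 2 ligands, and the receptor genes Ptprz1, Alk, Sdc1, Sdc2, Sdc3 and Sdc4. They were drawn up as a ligand and receptor group around Ptn, which had stood out among the probe sets higher in mutant than in wild-type hSOD1 pools. The mutant minus wild-type values of the group, and the values against the negative control that share the same pools, are therefore a description. Every probe set that the platform annotation assigns to 1 of these symbols and no other was taken, which gave 14 probe sets of 31042. All 8 genes, of 14217 with a symbol, had at least 1.

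Each of 9 Affymetrix arrays carried total RNA of ventral spinal cord from a pool of 5 rat embryos at embryonic day 14. The human SOD1 gene encodes superoxide dismutase 1, and inherited mutations in it are a known origin of amyotrophic lateral sclerosis. The arrays comprised 4 pools of embryos with a G93R mutant hSOD1 transgene (labelled Roth), 4 pools with a wild-type hSOD1 transgene (labelled Chan) and 1 negative control pool (labelled SDneg). The transgene promoter and the number of rat lines are not given in the sources used here, so mutation, line and insertion site cannot be told apart. The negative control is described in its label both as a negative control and as positive embryos, and it was used as the negative control. In each transgenic group the titles of replicates 2, 3 and 4 carry a tag, le2, of unstated meaning, while replicate 1 and the negative control lack it. A pool mixes all cells of the dissected tissue, so fewer cells of a type and less RNA per cell cannot be told apart.

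Pleiotrophin and midkine are small secreted growth factors that bind heparin and share most of their domain plan. Both attach to the sulfated sugar chains of proteoglycans: the chondroitin sulfate chains of the receptor phosphatase Ptprz1, whose activity is reduced by binding, and the heparan sulfate chains of the syndecans. Syndecan-3 was purified from rat brain as a receptor through which pleiotrophin promotes neurite growth, and the receptor tyrosine kinase Alk has been reported as a further receptor for both ligands. In the embryonic nervous system Ptprz1 is made mainly by radial glia, in rat also as a secreted form called phosphacan.

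The promoters of Ptn and Sdc3 are shown because their probe sets had the largest positive differences between mutant and wild-type pools among the tested probe sets of these 8 genes. Each is the RefSeq window of 300 bases around the start of the gene, mostly before it, in GRCr8. Ptn lies on the minus strand (chr4:66342283-66342582) and Sdc3 on the plus strand (chr5:148249542-148249841). Capitals mark GC boxes, GGGCGG read on both strands.
Ptn: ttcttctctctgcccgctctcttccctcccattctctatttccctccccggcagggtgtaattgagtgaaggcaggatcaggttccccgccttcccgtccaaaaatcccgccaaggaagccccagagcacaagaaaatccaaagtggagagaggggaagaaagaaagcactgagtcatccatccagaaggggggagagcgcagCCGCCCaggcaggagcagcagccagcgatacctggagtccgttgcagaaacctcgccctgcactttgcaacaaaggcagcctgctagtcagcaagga
Sdc3: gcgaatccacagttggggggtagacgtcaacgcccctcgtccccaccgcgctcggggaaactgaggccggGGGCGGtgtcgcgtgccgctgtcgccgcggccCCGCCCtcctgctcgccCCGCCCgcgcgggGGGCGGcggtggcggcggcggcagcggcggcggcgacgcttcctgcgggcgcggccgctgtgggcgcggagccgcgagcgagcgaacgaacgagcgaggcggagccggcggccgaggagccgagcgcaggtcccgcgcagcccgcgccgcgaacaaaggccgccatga
The Ptn window held 1 GC box and the Sdc3 window 4, and 33.1% of 33469 rat promoter windows of that length held at least 1. The windows were 57% and 79.3% G and C. Neither held TATAAA, present in 14.2% of windows, or CCAAT, present in 37.5%. An E-box, CANNTG, occurred once in the Sdc3 window and not in that of Ptn, against 72.1% of all windows. These are matches of letters and say nothing of binding.

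Levels are given as the authors' linear intensities, and differences are on the log2 scale after adding a pseudocount of 8.25. The filter on dim probe sets lay at a mean intensity of 17.3, and 9 of the 14 exceeded it and were tested. The other 5, which include the only Sdc4 probe set, lay below it. A probe set's brightness depends on its own probes, so levels are compared between groups and not between probe sets. SDs measure the spread between pools of a group, and limma p-values weigh a difference against that spread, moderated across probe sets. The single negative control pool has no spread of its own.

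The ligand gene Ptn (1369968_at) had intensities of 462, 504, 551 and 508 in mutant replicates 1 to 4, against 351, 389, 415 and 414 in wild-type replicates 1 to 4. The negative control stood at 522. All mutant pools lay above all wild-type pools, and the negative control lay within the range of the mutant pools and above all wild-type pools. The order was thus negative control, mutant and wild-type, of which the negative control and mutant pools did not differ beyond the spread of the mutant pools. Mean intensities were 506 ± 36.7 in mutant and 392 ± 29.9 in wild-type pools (SD, n = 4 each), a difference of 0.36 (SE 0.0912). The 3 tagged replicates of each group differed by 0.35 and the untagged replicates 1 by 0.39. Set against the negative control, which also lacks the tag, the untagged pools alone gave −0.17 for mutant and −0.56 for wild-type hSOD1. Against the single negative control Ptn differed by −0.05 in mutant and −0.41 in wild-type pools. These comparisons share the control.

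The other ligand gene, Mdk (1367682_at), overlapped between the groups. Its intensities were 113, 136, 84.4 and 125 in mutant pools, against 91.4, 95.1, 103 and 105 in wild-type pools, with the negative control at 114. Mutant replicate 3, the highest mutant pool for Ptn, was the lowest of all arrays for Mdk. The difference of 0.18 (SE 0.140) was 0.31 without that pool and 0.10 without mutant replicate 2. On the log2 scale the pools of 1 group had an SD of 0.21 for Mdk and 0.11 for Ptn, where the median over all tested probe sets was 0.18.

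**Figure D1:**
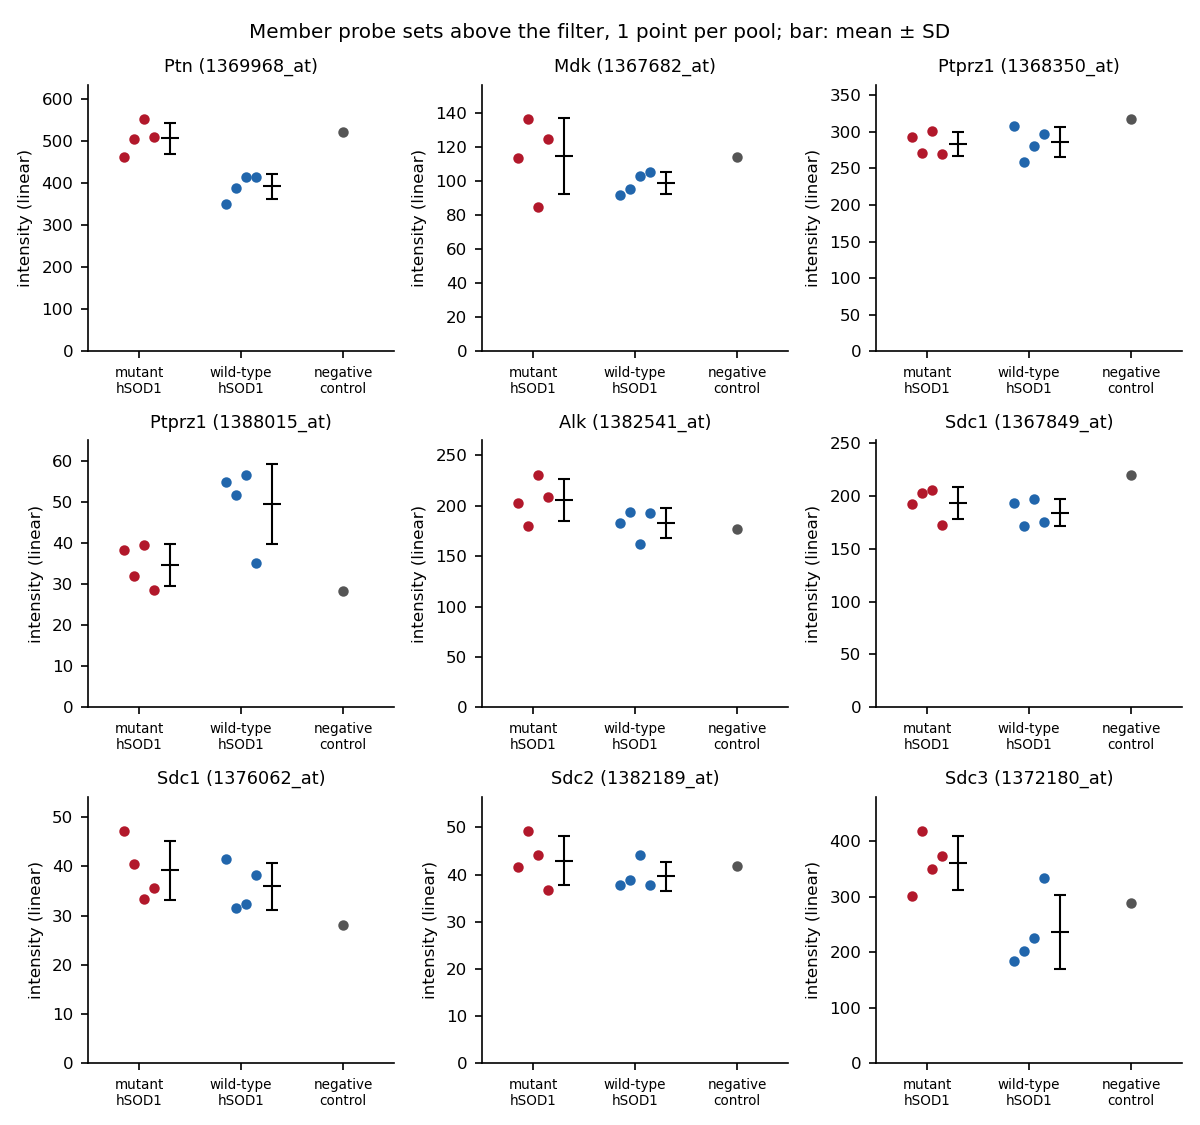
Intensity on a linear scale of the 9 tested probe sets in mutant hSOD1, wild-type hSOD1 and negative control pools, 1 point per pool, with the mean and SD of each transgenic group beside its points. Ptn is the probe set without overlap between mutant pools (462 to 551) and wild-type pools (351 to 415).

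The receptor phosphatase gene Ptprz1 gave different pictures on its 2 probe sets. On the brighter, 1368350_at, intensities were 292, 271, 301 and 269 in mutant pools, against 308, 259, 281 and 296 in wild-type pools, with the negative control at 317. The transgenic groups covered nearly the same range, with a difference of −0.01 (SE 0.0934) whose sign turned under 5 of 15 alternatives. On the dimmer, 1388015_at, they were 38.4, 32.0, 39.6 and 28.7 in mutant pools, against 54.8, 51.6, 56.5 and 35.3 in wild-type pools, with the negative control at 28.2. Here 3 wild-type pools lay above every mutant pool, while wild-type replicate 4 lay within the mutant range. The difference was −0.42 (SE 0.163), and −0.55 without wild-type replicate 4. Which Ptprz1 transcripts each probe set detects was not determined.

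The receptor kinase gene Alk (1382541_at) had 202, 179.6, 230.2 and 209 in mutant pools, against 183, 194, 162 and 193 in wild-type pools, with the negative control at 176. Of the mutant pools 3 lay above every wild-type pool and replicate 2 lay below 3 of them. The difference was 0.16 (SE 0.108), and 0.10 without mutant replicate 3 or 0.22 without mutant replicate 2.

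Among the syndecans, the cell surface proteoglycans, Sdc3 had the largest difference. Its bright probe set, 1372180_at, had 301, 418, 349.9 and 373 in mutant pools, against 185, 202, 225 and 333 in wild-type pools, with the negative control at 289. Only wild-type replicate 4 reached into the mutant range, and the negative control lay between the other wild-type pools and the lowest mutant pool. Means were 360.4 ± 48.6 in mutant and 236 ± 66.6 in wild-type pools (SD, n = 4 each), a difference of 0.62 (SE 0.161) that was 0.79 without wild-type replicate 4. Set singly against the negative control, mutant pools differed by 0.30 and wild-type pools by −0.32. The untagged pools alone differed from the control, which also lacks the tag, by 0.06 for mutant and −0.62 for wild-type hSOD1, and with the tag as a covariate the values were 0.03 and −0.59. The spread within groups on the log2 scale, an SD of 0.29, was the largest of the 9 tested probe sets.

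The other Sdc3 probe sets were dim. On 1368580_at the mutant pools had 3.18, 11.3, 4.18 and 36.3, against 2.44, 3.12, 1.90 and 4.38 in wild-type pools, with the negative control at 3.01. Mutant replicates 2 and 4 stood above the other arrays and the other mutant pools did not. On 1368581_at no array exceeded 2.29.

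Sdc1, syndecan-1, had 192, 203, 206 and 172 in mutant pools on 1367849_at, against 193, 172, 197 and 175 in wild-type pools, with the negative control at 219. On its dimmer probe set, 1376062_at, mutant pools had 47.1, 40.6, 33.5 and 35.5, against 41.6, 31.6, 32.5 and 38.2 in wild-type pools, with the negative control at 28.0. Mutant and wild-type pools overlapped on both, with differences of 0.07 (SE 0.102) and 0.10 (SE 0.149). Leaving out 1 pool moved these to between 0.03 (without wild-type replicate 2) and 0.12 (without mutant replicate 4), and to between 0.02 (without mutant replicate 1) and 0.16 (without wild-type replicate 1). Sdc2, syndecan-2, lay between 36.7 and 49.2 in mutant pools on 1382189_at, against 37.8 to 44.1 in wild-type pools, with the negative control at 41.7, a difference of 0.09 (SE 0.135). Leaving out mutant replicate 2 gave 0.03, and leaving out mutant replicate 4 gave 0.15. Its other probe sets and that of Sdc4, syndecan-4, lay below the filter. Sdc2 reached at most 17.1 in mutant pools on these, 21.4 in wild-type pools, with the negative control at 14.7, and Sdc4 lay at 11.5 to 19.8 in mutant pools, against 12.1 to 21.7 in wild-type pools and 9.27 for the negative control. No order of the groups can be read at such levels.

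**Figure D2:**
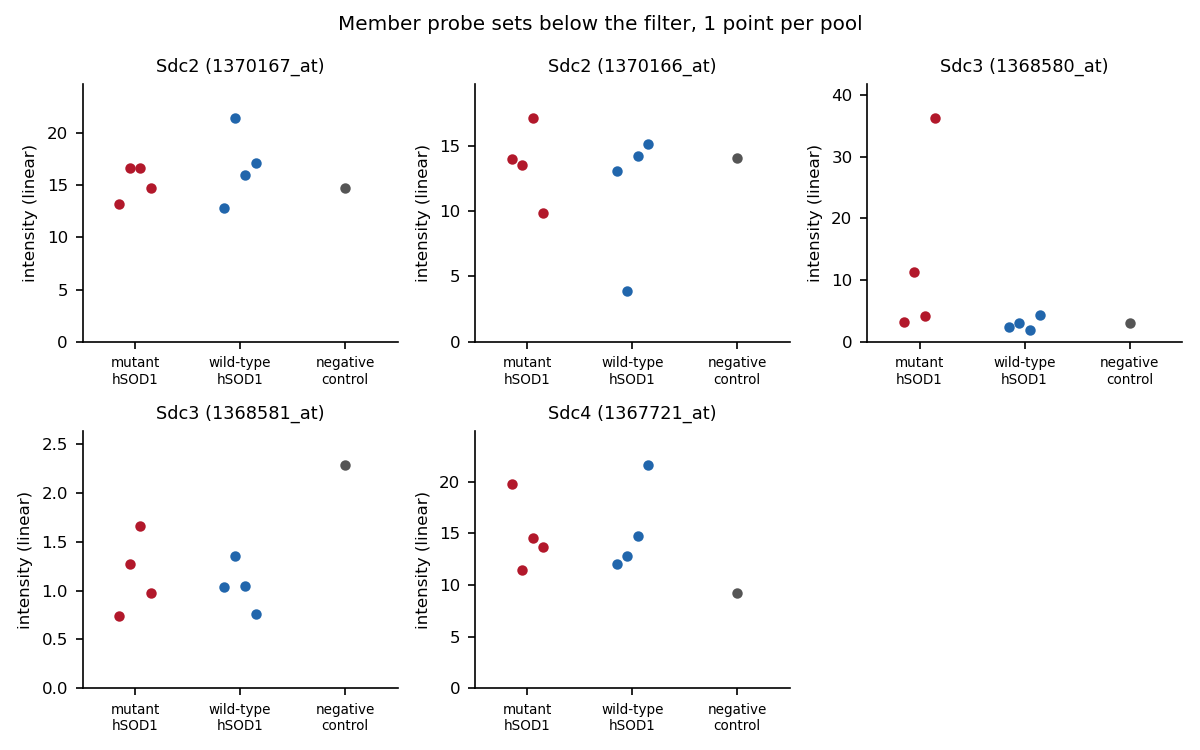
Intensity on a linear scale of the 5 probe sets below the filter in mutant hSOD1, wild-type hSOD1 and negative control pools, 1 point per pool. Sdc3 on 1368580_at reached 36.3 in mutant replicate 4 and 11.3 in mutant replicate 2. Mutant replicates 1 and 3, at 3.18 and 4.18, lay within the wild-type range of 1.90 to 4.38.

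Between mutant and wild-type hSOD1, limma called 0 of the 9 tested probe sets at an adjusted p under 0.05, against 0.0161% of all 18625 probe sets tested, and 3 of 9 at an unadjusted p under 0.05, against 4.93%. Without wild-type replicate 4 the unadjusted test passed 1554 of all tested, against 918 with it, while 3 of the 9 passed in both. The count among the 9 was 2 without mutant replicate 2 or 4 and without wild-type replicate 1 or 3. With the beta-actin 3'/5' ratio as a covariate or on the tagged arrays alone it was also 2. Leaving out mutant replicate 3 gave 4. All mutant pools lay above all wild-type pools at 1 of 9, Ptn, against 1.71% of all tested, and below them at 0 of 9, against 1.24%, so that groups without overlap made up 2.95% of all tested. The difference was positive for 7 of the 9 and for 53.7% of all tested, with a median of 0.10 for the 9 and 0.01 for all. Since Ptn was chosen from this contrast, these shares describe the group and test nothing.

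**Figure D3:**
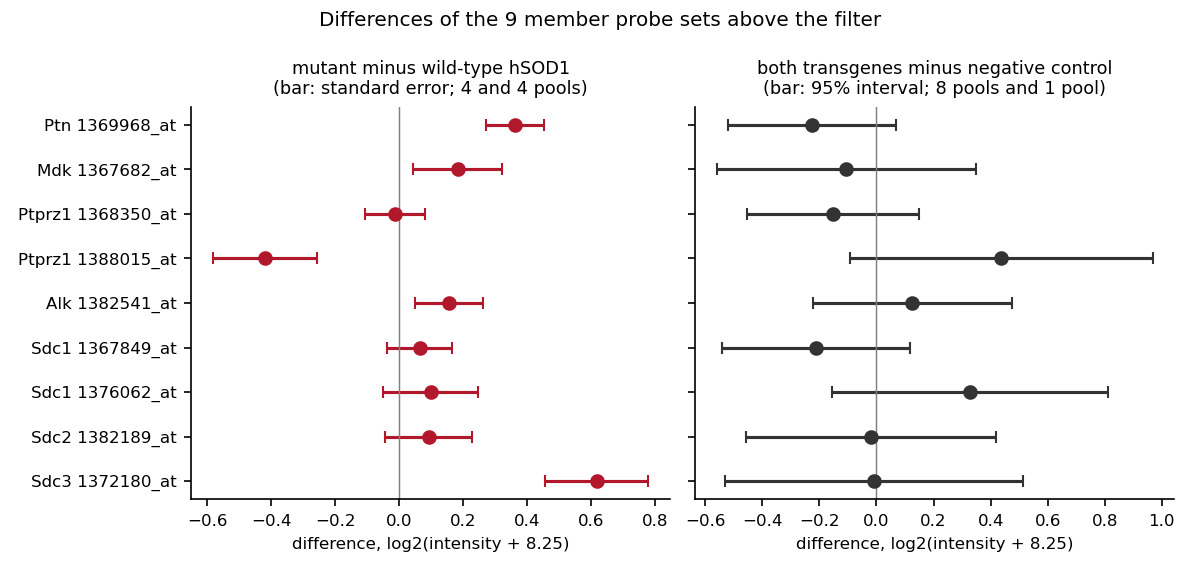
Differences on the log2 scale of the 9 tested probe sets. Left, mutant minus wild-type hSOD1 with standard errors, from −0.42 for Ptprz1 1388015_at to 0.62 for Sdc3. Right, both transgenes minus the negative control with 95% intervals, all of which include 0.

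The mean of both transgenes against the negative control is a contrast separate from the one that picked Ptn, and it rests on 1 control pool, assumed to vary like the transgenic pools. None of the 9 probe sets passed (0 by limma, and 0 at an unadjusted p under 0.05), where the adjusted test called 0% of all tested and the unadjusted 3.12%. Every one of the 9 had a limma adjusted p of 1.00. At the unadjusted threshold 1 of 9 passed with the le2 tag as a covariate (Ptn, −0.37, limma unadjusted p = 0.0263). Another 1 of 9 passed without wild-type replicate 4 (Ptprz1 1388015_at, 0.50, limma unadjusted p = 0.0382). None passed the adjusted one. Ptn was 449 ± 68.4 over the 8 transgenic pools, against 522 in the control pool, a difference of −0.23 (95% interval −0.52 to 0.07), with 1 of 8 pools above the control. Mdk differed by −0.11 (95% interval −0.56 to 0.35) and Alk by 0.13 (95% interval −0.22 to 0.48). For Sdc3 the difference was −0.0086 (95% interval −0.53 to 0.51), a mean over mutant pools above and wild-type pools mostly below the control.

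Ptprz1 and Sdc1 each had 1 probe set with all 8 transgenic pools below the negative control and 1 with all 8 above it. The brighter Ptprz1 probe set was 285 ± 17.3 over the 8 transgenic pools, against 317 in the control pool, a difference of −0.15 (95% interval −0.45 to 0.15). The dimmer was 42.1 ± 10.7 in transgenic pools, against 28.2 in the control, a difference of 0.44 (95% interval −0.09 to 0.97). The brighter Sdc1 probe set was 189 ± 13.7 in transgenic pools, against 219 in the control, a difference of −0.21 (95% interval −0.54 to 0.12), and the dimmer 37.6 ± 5.33 in transgenic pools, against 28.0 in the control, a difference of 0.33 (95% interval −0.16 to 0.81). Over all tested probe sets the 8 transgenic pools lay above the control at 9.19% and below it at 10.5%. Mutant and wild-type hSOD1 set singly against the control also gave 0 calls among the 9, with 0 and 2 at an unadjusted p under 0.05, where 2.29% and 4.28% of all tested stood. These counts were 1 and 3 with the le2 tag as a covariate. For wild-type hSOD1 the count was 1 with the actin covariate and without wild-type replicate 1 or 3, and 3 without replicate 4. Both adjusted tests called 0% of all tested.

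The 3'/5' ratio of beta-actin, an indirect measure of RNA quality, differed between the transgenes. This ratio rises as RNA is shortened. It averaged 7.31 ± 0.465 in mutant pools, against 11.3 ± 5.29 in wild-type pools (SD, n = 4 each). The groups did not overlap (two-sided exact permutation p = 0.0286, which 70 arrangements cannot go below). In the negative control the ratio was 6.66. The ratio was 19.2 in wild-type replicate 2, and without it the exact two-sided permutation p was 0.0571. Without 1 mutant pool it was 0.143 to 0.200. The groups remained without overlap in each of these cases. The test is on means, on which the 19.2 of wild-type replicate 2 weighs heavily. With the log2 actin ratio as a covariate, the differences between mutant and wild-type pools were 0.35 for Ptn, 0.50 for Sdc3 and −0.36 for Ptprz1 1388015_at. At an unadjusted p under 0.05, limma then passed 2 of the 9 and 680 of all tested, against 3 and 918 without the covariate. Since the ratios of the 2 groups do not overlap, this fit cannot tell RNA quality and transgene apart. The ratio of GAPDH averaged 2.55 ± 0.0423 in mutant pools, against 2.88 ± 0.460 in wild-type pools (SD, n = 4 each; exact two-sided permutation p = 0.0571).

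Of the ventral cord markers on the array, 3 of 6 lay above the filter (Nkx6-1, Nkx6-2 and Nkx2-2), while Olig2, Foxa2 and Shh did not. The summed intensity of 9 radial glia markers on the array, the cells known to make Ptprz1, ranged from 1249 to 1819 in mutant pools, against 1312 to 1746 in wild-type pools. For 6 motor neuron markers it ranged from 1184 to 1846 in mutant pools, against 951 to 1420 in wild-type pools, and 4 of the 5 above the filter were higher in mutant pools. For 5 sensory ganglion markers it ranged from 5155 to 7700 in mutant pools, against 4944 to 5532 in wild-type pools, with 4 of 4 above the filter higher in mutant pools. Of all tested probe sets 53.7% were higher in mutant pools. None of these 3 sums separated the groups. In the negative control they were 1268, 1348 and 5052. Vim and Fabp7 were the brightest radial glia markers, and Fabp7 varied widely, at 324 ± 240 in mutant pools, against 308 ± 217 in wild-type pools. Slc1a3 was lower without overlap, at 83.4 ± 5.21 in mutant pools, against 111 ± 10.2 in wild-type pools. Its difference was −0.38, and 1.24% of all tested were lower without overlap. Of the 8 radial glia markers above the filter, 4 were higher and 4 lower in mutant pools. The sensory ganglion sum came mostly from Sncg and Prph, at 3476 and 2503 in mutant pools, against 2719 and 2316 in wild-type pools. Whether ganglion tissue or other cells of the dissected cord carried this RNA was not tested. Pou4f1 and Runx1 had 168 and 111 in mutant pools, against 151 and 70.7 in wild-type pools. Markers of microglia (0 of 6) and of Schwann cells and neural crest (0 of 3) did not pass the filter, and 1 of 8 of meninges and mesenchyme did. Those of skeletal muscle passed at 3 of 4, with sums of 137 to 167 in mutant pools, against 102 to 165 in wild-type pools and 119 for the negative control. Of cartilage 2 of 4 passed, of endothelium 2 of 6 and of blood 1 of 3, and the sums of these lists overlapped between the transgenic groups. Between mutant and wild-type pools limma called 0 of the marker genes tested, and the part of RNA quality and cell makeup in the member values was not tested further.

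The probe sets whose profile over the 9 arrays lay nearest to that of Ptn were found by the root mean square distance between log2 values, each centred on its own mean. Among 13287 probe sets of other genes with 1 symbol, the nearest were Txnrd1 (1386958_at), Gpld1, Fancl, Cenpi and Cops7b (1386545_at), at distances of 0.07, 0.08, 0.09, 0.09 and 0.09. Ptn itself varied around its mean by 0.20, and the median distance of all tested probe sets was 0.26. Txnrd1, a cytosolic thioredoxin reductase, had 91.8 ± 8.40 in mutant and 74.8 ± 11.4 in wild-type pools (SD, n = 4 each), with the negative control at 97.4. Gpld1, a phospholipase that releases GPI-anchored proteins, had 89.4 ± 8.87 in mutant pools, against 69.9 ± 6.74 in wild-type pools and 100.5 for the negative control. Cenpi, a centromere protein, had 19.9 ± 2.84 in mutant pools, against 15.4 ± 1.65 in wild-type pools and 25.7 for the negative control. Its wild-type pools, at 13.4, 15.2, 15.8 and 17.4, lay under or near the filter at a mean intensity of 17.3. Other tested probe sets of Txnrd1 (1398791_at) and Cops7b (1382725_at) differed by 0.13 and 0.09 between mutant and wild-type pools. Within the group, Sdc2 and the brighter Sdc1 probe set lay nearest to Ptn, each at a distance of 0.18, and they themselves varied around their means by 0.11. A profile with no variation would lie from Ptn at its own 0.20, and these 2 ranked 1537 and 1591 by nearness among all tested probe sets. Farthest was the dimmer Ptprz1 probe set, at 0.48.

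**Figure D4:**
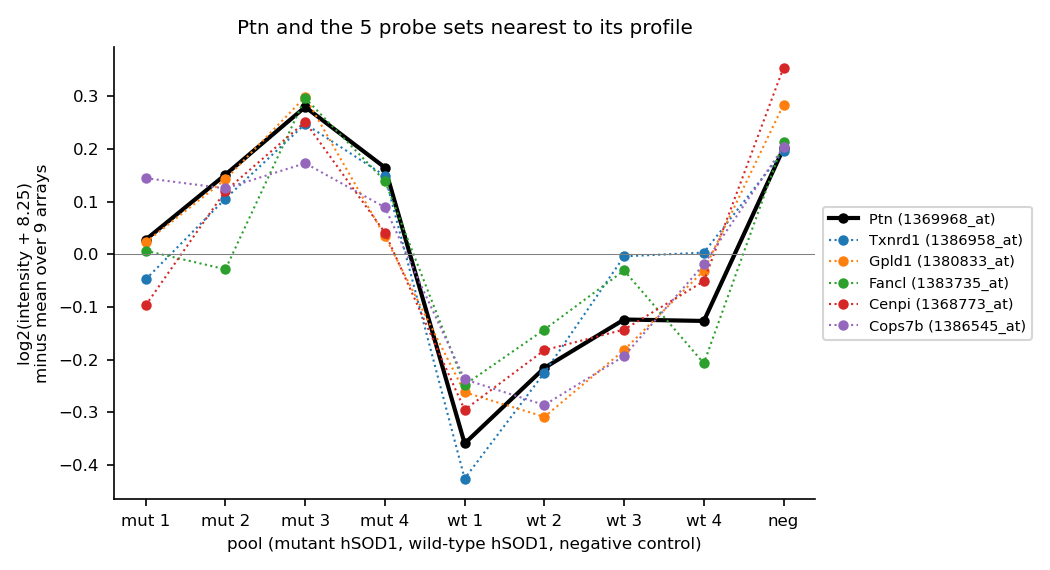
Log2 values of Ptn and of the 5 nearest probe sets, each minus its mean over the 9 arrays, in mutant hSOD1, wild-type hSOD1 and negative control pools. Pools of a group have no order and the lines only join points of 1 probe set. Distances from Ptn were 0.07 to 0.09.

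The wider pathway was read from 5 lists with 109 entries, of which 75 genes were tested on their brightest probe set. Between mutant and wild-type hSOD1, 45 had positive and 30 negative differences, and limma called 0 in either direction (smallest adjusted p = 0.929). Of all tested probe sets 53.7% had positive differences. At an unadjusted p under 0.05 there were 2 of the 75 genes, against 4.93% of all tested. Against the negative control 31 were higher and 44 lower in transgenic pools, with 0 calls by limma, and 46.5% of all tested probe sets were higher. At an unadjusted p under 0.05 there was 1 of the 75, against 3.12% of all tested.

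Of 10 tested ligands and extracellular partners of these receptors, 7 were higher in mutant pools, with a median difference of 0.03 and 0 calls. Ncam1, a neural cell adhesion molecule that binds the extracellular part of Ptprz1, had 149 ± 39.6 in mutant and 103 ± 27.5 in wild-type pools (n = 4 each), with the negative control at 146 on 1377368_at. The difference was 0.51 (limma adjusted p = 0.929). Its other tested probe sets, 1379389_at and 1368320_at, differed by 0.28 and 0.0011. Cntn1, a contactin and known Ptprz1 ligand, had 35.1 ± 1.82 and 31.3 ± 9.59, Cntn2 43.8 ± 4.59 and 51.3 ± 8.82, and the adhesion molecule gene L1cam 781 ± 40.4 and 746 ± 184 in mutant and wild-type pools. On the brightest probe set of each gene, L1cam and Nfasc ranked first in this list by p against the negative control. They had 764 ± 125 and 634 ± 26.0 in the 8 transgenic pools and 630 and 591 in the control. Their differences were 0.26 and 0.10. The other tested Nfasc probe sets, 1380917_at and 1393181_at, differed from the control by −0.0029 and −0.02. Of the dimmer Ncam1 probe sets, 1379389_at had 85.8 ± 13.8 in transgenic pools, against 117 in the control, a difference of −0.43 (limma adjusted p = 1.00, unadjusted p = 0.0422). On 1368320_at the difference was −0.26, and on both all 8 transgenic pools lay below the control, as at 10.5% of all tested.

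Other receptors and proteoglycans were evenly split, with 8 of 16 higher in mutant pools, a median of 0.01 and 0 calls. Gpc1, a glypican that carries heparan sulfate, had 840 ± 23.3 in mutant and 719 ± 88.2 in wild-type pools (n = 4 each), a difference of 0.23 (limma adjusted p = 0.929), with the negative control at 755. Gpc4, another glypican, ran the other way, at 45.8 ± 8.42 in mutant pools, against 58.9 ± 7.42 in wild-type pools. The heparan sulfate proteoglycan gene Agrn had 2319 ± 176 and 2112 ± 278, and Ncl, whose product nucleolin also binds midkine at the cell surface, 1377 ± 204 and 1569 ± 233 in mutant and wild-type pools. All 8 transgenic pools lay above the negative control for Ncl, at 1473 ± 228 against 1136 in the control. They also did so for the integrin gene Itga6, at 718 ± 65.8 against 589 in the control, and at 9.19% of all tested probe sets.

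Limma called 0 of the tested enzymes that build the sugar chains. Of 20 tested genes of heparan sulfate synthesis and editing, 9 were higher and 11 lower in mutant pools, with a median of −0.0047. Ext2, part of the polymerase, had 354 ± 47.9 and 304 ± 50.4 in mutant and wild-type pools, and Extl1, a relative of it, 20.1 ± 2.65 in mutant pools, against 16.3 ± 7.97 in wild-type pools. The sulfotransferase gene Ndst2 had 115 ± 17.5 in mutant pools, against 133 ± 23.1 in wild-type pools, and Hs3st2, another, 146 ± 18.8 in mutant pools, against 167 ± 39.6 in wild-type pools. B4galt7, which adds the first galactose of the linker shared by both kinds of chain, had 133 ± 9.63 over the 8 transgenic pools, against 95.8 in the control pool. Its difference was 0.44 (limma adjusted p = 1.00), with 8 of 8 pools higher, as at 9.19% of all tested probe sets. The sulfotransferase gene Hs2st1 had 597 ± 39.9 in transgenic pools, against 678 in the control, with 8 of 8 lower, as at 10.5% of all tested. On its dimmer probe sets, 1380235_at and 1383724_at, 2 and 4 of 8 transgenic pools lay above the control, with differences of −0.16 and −0.08. Of 7 tested genes of chondroitin sulfate synthesis, 4 were higher in mutant pools, with a median of 0.04. Dsel, a dermatan sulfate epimerase, had 134 ± 9.09 in mutant pools, against 167 ± 34.9 in wild-type pools. The sulfotransferase gene Chst14 had 26.0 ± 2.25 in mutant pools, against 22.0 ± 1.45 in wild-type pools, without overlap, as at 1.71% of all tested. Chain polymerization factor Chpf2 had 42.8 ± 2.85 in mutant pools, against 38.9 ± 12.7 in wild-type pools, and the polymerase gene Chsy1 365 ± 8.42 in mutant pools, against 353 ± 28.6 in wild-type pools. Csgalnact1, which starts the chain, had 28.1 ± 8.31 over the 8 transgenic pools, against 20.7 in the control pool, and Dsel 150.5 ± 29.2 in transgenic pools, against 134 in the control.

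Of 22 tested intracellular partners and sheddases, 17 were higher in mutant than in wild-type pools, with a median of 0.07, and 6 were higher in transgenic pools than in the negative control, with a median of −0.09. The median of all tested probe sets was 0.01 in the comparison of mutant with wild-type pools and −0.02 in that with the control. Sdcbp, whose product syntenin binds the tails of syndecans, had 3796 ± 197 in mutant and 3495 ± 308 in wild-type pools (n = 4 each). Irs1, an adaptor of receptor kinases, had 24.1 ± 3.75 in mutant pools, against 32.2 ± 6.16 in wild-type pools. The exchange factor gene Tiam1 had 170.0 ± 28.8 in mutant pools, against 195 ± 15.7 in wild-type pools, and the membrane protease gene Mmp14 77.4 ± 17.7 in mutant pools, against 106 ± 36.2 in wild-type pools. Shc1, an adaptor that receptor kinases such as Alk phosphorylate, had 56.0 ± 10.1 over the 8 transgenic pools, against 80.8 in the control pool, with 8 of 8 lower. Irs1 had 28.2 ± 6.41 in transgenic pools, against 18.6 in the control, with 8 of 8 higher. Over all tested probe sets 8 of 8 were lower at 10.5% and higher at 9.19%.

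**Figure D5:**
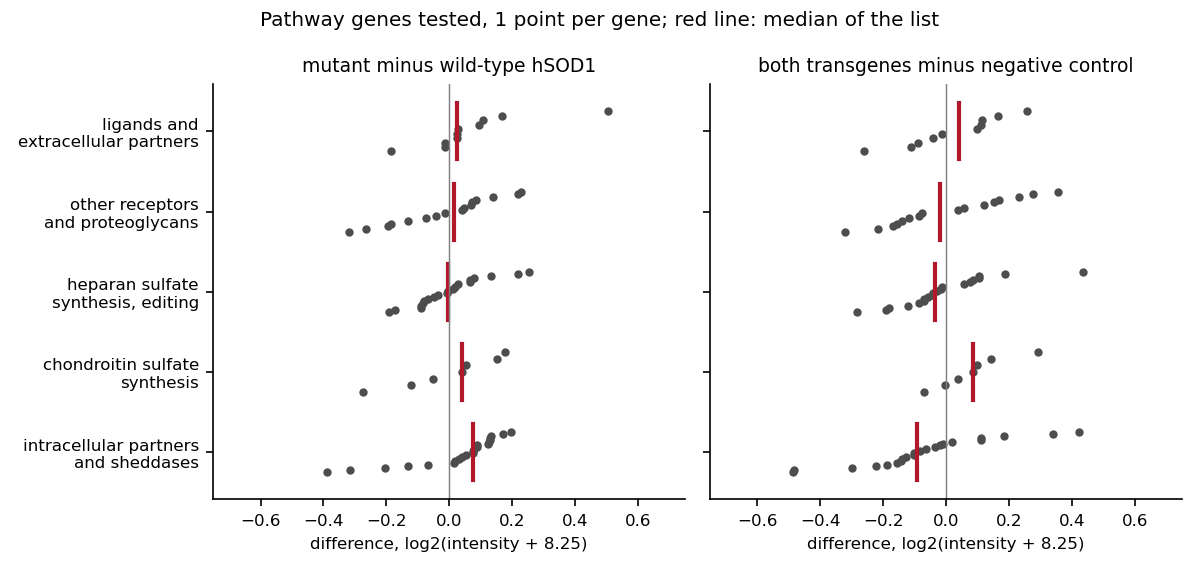
Differences on the log2 scale of the 75 tested pathway genes in 5 lists, 1 point per gene with the median of each list as a red line. Left, mutant minus wild-type hSOD1; right, both transgenes minus the negative control. List medians lay from −0.0047 to 0.07 on the left and from −0.09 to 0.09 on the right.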

How the data were processed

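The deposited values are linear intensities, 1 for each probe set on each array. The software behind these deposited intensities was not given in the sources used here. The values themselves show scaling by the authors: without the lowest and highest 2% of probe sets each array averaged 150.0. The array medians were 31.0 to 33.9 and no normalization was added. For arrays the number of pools limits the precision.

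Of 31099 probe sets, 57 control probe sets were left out. The annotation listed 20826 with 1 gene symbol, 436 with several and 9780 with none; 20758 Entrez identifiers matched the gene table, with 0 changed symbols. Log2 was taken after adding 8.25, which is the 25th percentile over the table. Tested probe sets had to exceed the 40th percentile on average, and 18625 were tested with limma 3.58.1 in R 4.3.3 (intensity trend, Benjamini-Hochberg over all tested, threshold 0.05). The mutant and wild-type comparison used 8 arrays, and comparisons with the negative control used all 9. The fit was tested on simulated data.

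The members, pathway and marker lists were chosen with earlier results of these data known. Named were all member probe sets, the 5 nearest to Ptn, and from each pathway list up to 4 genes with the smallest p between mutant and wild-type pools and up to 2 against the negative control. Promoter sequences are RefSeq's. Alternatives were quantile normalization, pseudocounts of 2.06 and 33.0, no filter or the 60th percentile, no trend, the le2 tag or actin ratio as a covariate, 1 probe set per gene, a replicate block, leaving out each transgenic array, and, chosen after seeing the data, the tagged arrays alone.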

Additional observations from a re-analysis of the deposited data

Results flagged for a closer look

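In wild-type pools, 1 array lay far from the other 3 in 2 of the 32 groups of 4 examined, where chance alone gives about 1 in 20. Sdc2 (1382189_at) was 44.1 in wild-type replicate 3, while the other wild-type pools lay from 37.8 to 38.8. This value was within the range of the mutant pools, 36.7 to 49.2. The beta-actin 3'/5' ratio was 19.2 in wild-type replicate 2, and the other wild-type pools lay from 8.19 to 9.20. Without that pool the difference of Ptn between mutant and wild-type pools was 0.36 and that of Sdc3 (1372180_at) 0.56.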

How the results depend on the processing

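Calls among the 9 tested member probe sets stayed at 0 in each of the 4 comparisons under all 19 alternatives between mutant and wild-type hSOD1 and all 17 against the negative control, at limma's adjusted threshold. Over all probe sets, mutant against wild-type hSOD1 gave 3 calls. It gave 1 without a filter, 1 at the 60th percentile, 1 with the le2 tag as a covariate, and 0 without a trend, with the actin ratio as a covariate or on the tagged arrays alone, with 993, 680 and 670 at an unadjusted p under 0.05 for these; leaving out 1 array gave 1 to 3, with 1 without mutant replicate 1, wild-type replicate 1 or wild-type replicate 3. At an unadjusted p under 0.05, 918 became 1554 without wild-type replicate 4. Against the negative control 0 calls became 1 with a pseudocount of 2.06 for both transgenes, for mutant and for wild-type hSOD1, and leaving out 1 array gave 0 to 1 for both transgenes and for wild-type hSOD1, in each case 1 without wild-type replicate 1. The cause was not tested.

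Between mutant and wild-type pools the difference of Ptn lay between 0.31 and 0.40, of Sdc3 (1372180_at) between 0.50 and 0.79 and of Ptprz1 (1388015_at) between −0.55 and −0.28 over 15 alternatives, and Mdk lay between 0.10 and 0.31. With the le2 tag as a covariate, Ptn differed from the negative control by −0.37 for both transgenes, and Sdc1 (1376062_at) by 0.53. Sdc3 then differed by −0.28, against −0.0086 without it. Set singly against the control, Sdc3 was then 0.03 in mutant and −0.59 in wild-type pools. With the replicate number as a replicate block there were 3 calls over all probe sets and 0 among the members. At an unadjusted p under 0.05 the block gave 1211 of all tested, against 918 without it. Same-numbered pools had correlations of their departures from the group means of −0.07 to 0.20, over 0.1 for 2 of 4 pairs. For differently numbered pools they were −0.23 to 0.21, so the numbers were not taken to pair pools. So few values cannot exclude pairing. A replicate block could not be fitted against the single negative control. The exact two-sided permutation p of the actin ratio was 0.0571 without wild-type replicate 2 and 0.143 to 0.200 without 1 mutant pool. The ratios of the 2 groups still did not overlap in any of these.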
